A study of Mus musculus with 4 samples.

Results

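Nuclear genes for the proteins of the mitochondrial ribosome were followed in heart ventricles of mouse embryos that lack the histone deacetylase HDAC2 and of their wild-type littermates. A gene was included when a probe set of the array names it alone and its platform symbol is Mrpl or Mrps followed by digits and at most 1 letter. This gave 76 genes on 156 probe sets, 47 genes on 104 probe sets for the large subunit and 29 genes on 52 probe sets for the small one, among 18193 genes named on 45037 probe sets. Another 4 probe sets name an Mrpl or Mrps gene together with another gene and were left out, which leaves Mrpl30 and Mrpl53 without a probe set here.

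The groups were 2 arrays of HDAC2-deficient ventricles (KO), each from a pool of 3 embryos, and 2 arrays of wild-type ventricles (WT), each from a pool of 2, all at embryonic day 17.5 on a background of C57BL/6 X SV129. The Hdac2 allele, the sex of the embryos and whether pools shared animals are not stated in the labels, and pool size differs with genotype. As nothing more is said of how the pools were formed, p-values measure the spread between these arrays. The source label of both KO samples names wild type, so Hdac2 was read first. Its brightest probe set had signals of 31.4 and 21.0 on the KO arrays, against 1189 and 1421 on the WT arrays, with no Present call in KO.

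Mitochondria keep their own ribosome, which translates the few proteins encoded by mitochondrial DNA, all of them subunits of the respiratory chain and ATP synthase. Its RNAs come from mitochondrial DNA, while every one of its proteins is encoded in the nucleus, made in the cytosol and imported. Many of these proteins have a homologue in the bacterial ribosome and others are found only in mitochondria. The heart depends on oxidative metabolism, and its mitochondria multiply and mature around birth. Symbols do not always give the place of a protein: in mammals the products of Mrps18a and Mrps30 sit in the large subunit, and that of Mrps36 is now assigned to the oxoglutarate dehydrogenase complex. Genes are given here by symbol.

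Promoter windows of 3 members show the sequence from which these nuclear genes are read, chosen as the single called gene (Mrpl11) and the small subunit symbols at either end of the range of differences (Mrps26 and Mrps18a). The window of Mrpl46 is shown because it is shared with Mrps11, so that 1 stretch of DNA serves a large and a small subunit gene. Each window runs from 250 bases before to 50 after the RefSeq start site, on build GRCm38.p6. In the first 3 windows, capitals mark matches to CCGGAAG (the core bound by GABP and other ETS factors), GCGCA and GCGC with any 1 base between them (NRF1) or AAGATGGC (YY1) on either strand. In the Mrpl46 window, capitals mark the bases from the Mrps11 start site to the Mrpl46 start site.
Mrpl11, chr19:4962056-4962355, plus strand: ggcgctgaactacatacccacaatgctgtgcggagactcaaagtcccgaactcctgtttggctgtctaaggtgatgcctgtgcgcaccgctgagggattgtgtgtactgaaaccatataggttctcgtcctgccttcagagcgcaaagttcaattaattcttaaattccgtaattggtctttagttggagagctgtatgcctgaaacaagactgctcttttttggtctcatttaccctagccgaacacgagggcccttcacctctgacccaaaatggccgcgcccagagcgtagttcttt
Mrps18a, chr17:46110754-46111053, plus strand: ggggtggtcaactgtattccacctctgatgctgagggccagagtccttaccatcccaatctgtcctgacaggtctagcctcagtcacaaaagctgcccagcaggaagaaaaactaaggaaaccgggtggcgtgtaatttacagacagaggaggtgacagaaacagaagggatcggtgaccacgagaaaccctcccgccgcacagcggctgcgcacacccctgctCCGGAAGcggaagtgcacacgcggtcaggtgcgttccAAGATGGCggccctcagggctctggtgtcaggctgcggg
Mrps26, chr2:130563507-130563806, plus strand: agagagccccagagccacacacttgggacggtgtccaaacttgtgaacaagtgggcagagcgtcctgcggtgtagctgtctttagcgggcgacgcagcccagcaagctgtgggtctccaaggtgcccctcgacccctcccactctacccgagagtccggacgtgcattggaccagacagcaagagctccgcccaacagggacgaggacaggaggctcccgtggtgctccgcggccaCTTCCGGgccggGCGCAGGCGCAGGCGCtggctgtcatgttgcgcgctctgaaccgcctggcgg
Mrpl46, chr7:78783040-78783339, minus strand: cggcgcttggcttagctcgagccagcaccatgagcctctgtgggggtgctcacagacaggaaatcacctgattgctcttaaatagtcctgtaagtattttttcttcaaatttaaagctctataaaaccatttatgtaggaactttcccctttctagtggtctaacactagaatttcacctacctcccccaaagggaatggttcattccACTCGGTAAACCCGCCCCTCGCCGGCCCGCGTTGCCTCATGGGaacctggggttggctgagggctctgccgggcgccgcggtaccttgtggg

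The question was whether the level of these transcripts differs between KO and WT ventricles. At 1 of the 128 member probe sets tested, transcripts were higher in KO past the threshold, and at 0 they were lower. The one is a probe set of Mrpl11. Over all 19065 probe sets tested on the array, 0.383% were called higher and 0.96% lower (1.34% in all) by limma at a Benjamini-Hochberg adjusted p under 0.05. With so few called anywhere, 1 of 128 stands near that background. At an unadjusted p under 0.05, 5 member probe sets were higher and 4 lower, or 3.91% and 3.12%, against 7.29% and 8.23% (15.5% in all) of all probe sets tested.

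Testing required a Present call on both KO arrays or on both WT arrays, and a difference is the log2 MAS5 signal of KO minus that of WT. All 76 genes had a tested probe set, and at the brightest one of each gene all 76 were Present on all 4 arrays, so the transcripts were detected in both genotypes. Of the 28 member probe sets not tested, 21 were Absent on every array. Signals of different probe sets depend on their probes and are not compared with each other as levels.

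At the brightest probe set of each gene, differences ran from -0.39 to 1.00 for large subunit genes and from -0.44 to 0.45 for small subunit genes. The median was -0.040 for the 47 large subunit genes and 0.047 for the 29 small subunit genes, beside 0.035 for all 10184 genes tested. Of the large subunit genes, 21 had a positive (44.7%) and 26 a negative difference. Among the small subunit genes, 19 were positive (65.5%) and 10 negative. Over all genes tested, 55.7% were positive. The median absolute difference was 0.11 for member genes and 0.17 for all genes, and the median standard error (SE) was 0.127 for member genes and 0.165 for all genes. Without WT replicate 1 the large subunit median was 0.015 and the small subunit median 0.12, and without KO replicate 1 the large subunit median was 0.016. The sign of the large subunit median therefore depends on single arrays, while the small subunit median was positive with any 1 array left out (0.021 to 0.12).

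**Figure D1:**
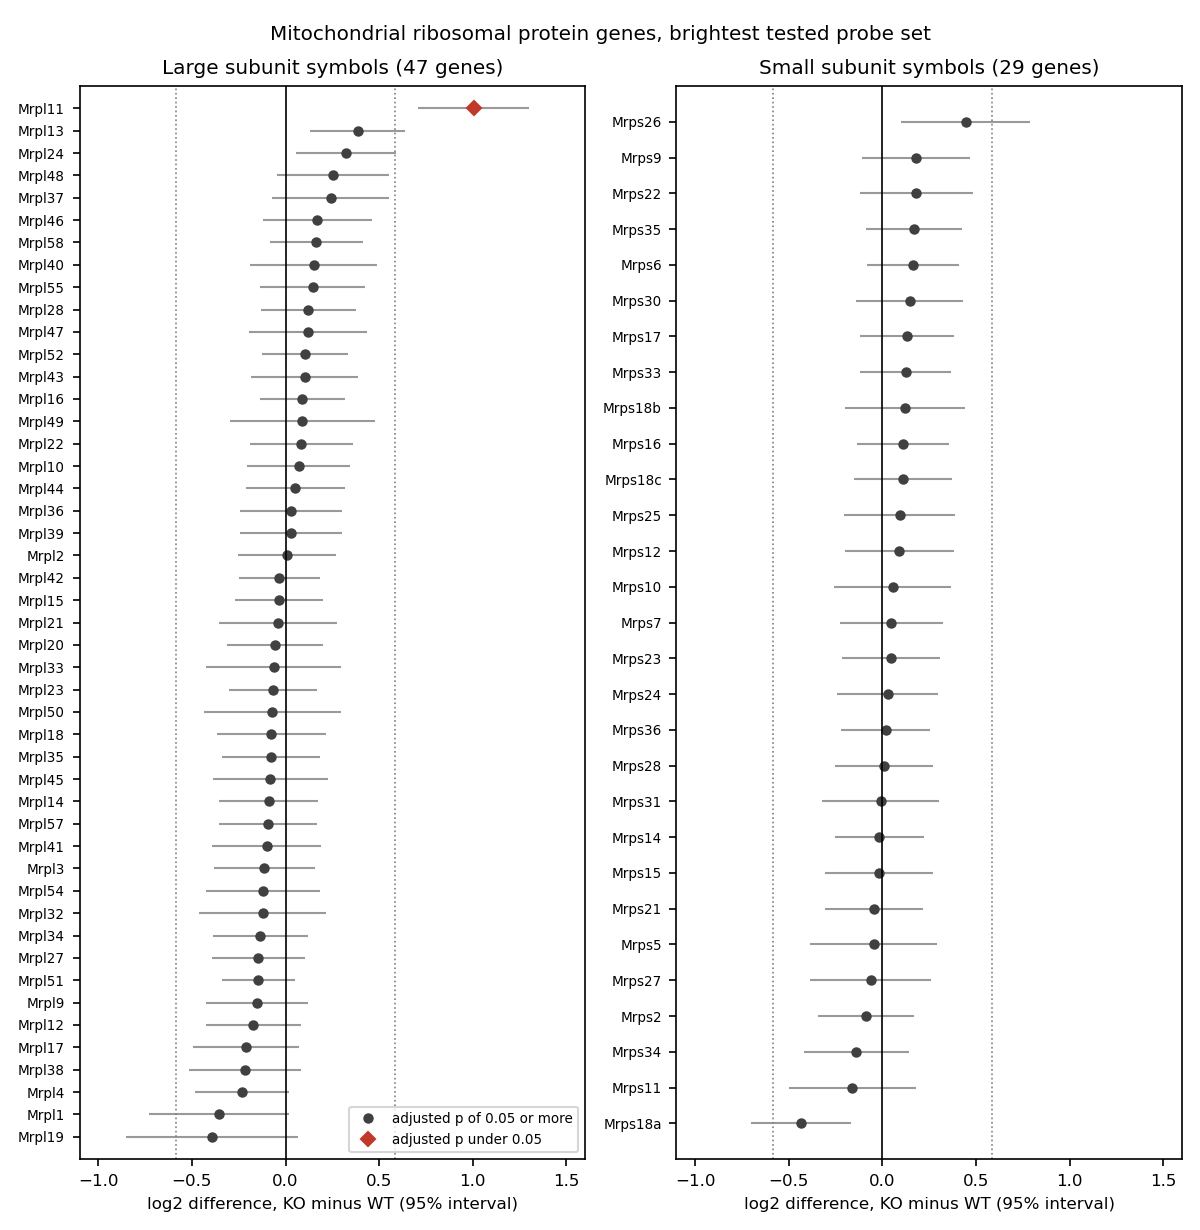
Log2 difference, KO minus WT, of every mitochondrial ribosomal protein gene at its brightest tested probe set, with its 95% interval from limma (2 KO and 2 WT arrays), large subunit symbols on the left and small on the right. Dotted lines mark a 1.5-fold difference. Mrpl11 alone passed the test, and 69 of the 76 intervals lie between the dotted lines.

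How large a difference the arrays leave possible is given by the 95% interval of each gene at its brightest probe set. It is taken without adjustment for the number of genes and rests on the variance trend of the fit. For 69 of the 76 member genes (90.8%) the whole interval lay within a 1.5-fold change in either direction, beside 56.4% of all genes tested. The other 7 genes were Mrpl1, Mrpl11, Mrpl13, Mrpl19, Mrpl24, Mrps18a and Mrps26. For 75 of the 76 the interval lay within a 2-fold change, the other being Mrpl11. A miss of the threshold does not show equal levels, but at the brightest probe set the arrays bound the difference closely for most of these genes. Over all member probe sets tested, 97 of 128 intervals (75.8%) lay within a 1.5-fold change, beside 47.7% of all probe sets tested. Dimmer probe sets reached beyond it in Mrpl48 (1437997_x_at, 0.26 to 0.90), Mrpl9 (1437749_s_at, -0.76 to -0.15) and Mrpl35 (1419362_at, -1.26 to -0.018), among others.

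**Figure D2:**
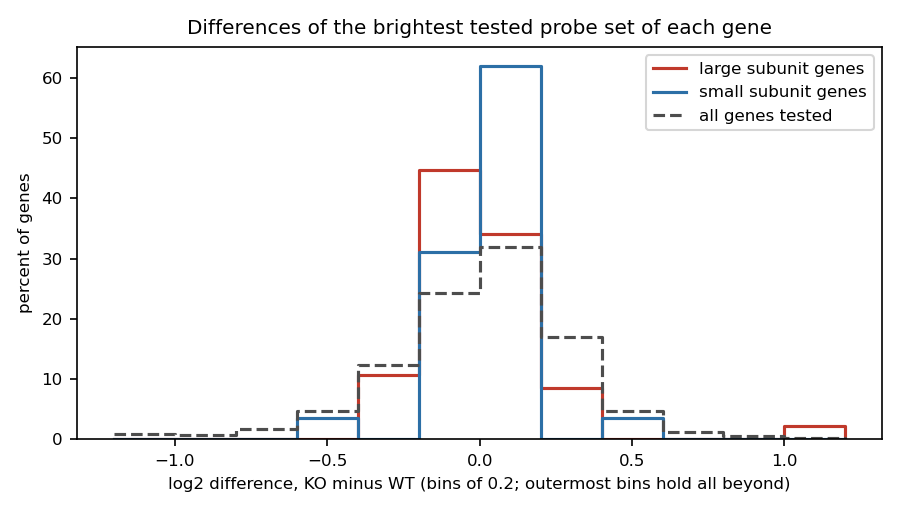
Percent of genes in bins of the log2 difference, KO minus WT, for large subunit genes (47), small subunit genes (29) and all genes tested (10184, dashed), each at its brightest tested probe set. In the bin just below 0 were 44.7% of large subunit, 31.0% of small subunit and 24.2% of all genes. In the bin just above 0 were 34.0%, 62.1% and 32.0%, in the same order.

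Mrpl11 encodes a protein at the base of the stalk where, as known from bacteria, translation factors that use GTP bind the large subunit. At probe set 1437131_x_at its signals were 922 and 1159 on the KO arrays, against 549.5 and 484 on the WT arrays. Both KO arrays lay above both WT arrays, and the transcript measured there rose 2.01-fold (1.00 ± 0.14 SE, n = 2 arrays per group, limma adjusted p = 0.00199).

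Probe sets of Mrpl11 did not move alike. At 1417918_at the signals were 775.5 and 669 in KO and 761 and 622 in WT, groups that overlap, with a difference of 0.066 ± 0.137. At 1437839_x_at they were 229 and 234 in KO and 252 and 257 in WT, and the difference was -0.14 ± 0.15. A further Mrpl11 probe set was Absent on all 4 arrays. The letter x in a probe set's name marks probes that can also match other transcripts, and its part in the difference at 1437131_x_at was not tested. With any 1 array left out the difference ran from 0.84 to 1.17 and stayed past the threshold, though the lone array of a group is then assumed to vary like the other group. The call ended without the detection filter (adjusted p = 0.101), without the variance trend (0.175) and in the deposited signal log ratio, where the difference was 0.30 (0.360).

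Among the other large subunit genes, the largest separated differences upward were those of Mrpl13, Mrpl24, Mrpl48 and Mrpl37, and none passed the test. Over all genes at their brightest probe set, both KO arrays lay above both WT arrays in 28.0% and below them in 20.6%. The share was 21.3% above and 19.1% below in the large subunit (10 and 9 of 47 genes), and 31.0% above and 6.9% below in the small subunit (9 and 2 of 29). These shares stand near the background apart from the small subunit's share below, which rests on 2 genes.

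Mrpl13, a conserved protein of the large subunit, had signals of 1006 and 1045 in KO, against 742 and 831 in WT, at 1424204_at. The groups do not overlap there, and the difference was 0.38 ± 0.12 (limma adjusted p = 0.136). At 1435966_x_at the order was the opposite, with 211 and 243 in KO and 276 and 286 in WT (-0.31 ± 0.16, adjusted p = 0.361). The third tested Mrpl13 probe set, 1460354_a_at, stood at 0.0015 ± 0.1407, with overlapping groups.

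Mrpl24, whose bacterial homologue starts the assembly of the large subunit, had signals of 925 and 1006 in KO and 833 and 714 in WT (0.32 ± 0.12, limma adjusted p = 0.235). Mrpl48, a mitochondrial addition to the central protuberance of the large subunit, gave 521.5 and 598 in KO and 505 and 435 in WT at its brightest probe set. That difference was 0.25 ± 0.14. Its other tested probe sets pointed the same way. The nearer to a call was 1437997_x_at, with 478 and 500.1 in KO and 367 and 291 in WT (0.58 ± 0.15, limma adjusted p = 0.0795). In the deposited signal log ratio the difference at 1437997_x_at was 0. Mrpl37, which has no bacterial homologue, gave 347 and 337.5 in KO and 301 and 278 in WT (0.24 ± 0.14).

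In the other direction the named large subunit genes were Mrpl1, Mrpl4, Mrpl38, Mrpl17 and Mrpl9. Mrpl1, the protein of the stalk beside which spent transfer RNA leaves, had signals of 144.5 and 162 in KO and 191 and 200.2 in WT at 1450948_a_at (-0.36 ± 0.17, limma adjusted p = 0.347). The other tested Mrpl1 probe set overlapped between groups, at 0.18 ± 0.23. Mrpl4, which lines the tunnel through which the new chain leaves, had 948 and 827 in KO and 1044 and 1039 in WT (-0.23 ± 0.12). Mrpl38, another protein of the central protuberance, stood at -0.22 ± 0.14, and Mrpl17 at -0.21 ± 0.13. At the dim 1430610_at Mrpl38 stood at 0.19 ± 0.34, with both KO arrays above both WT arrays. The other tested Mrpl17 probe set was negative as well (-0.33 ± 0.35).

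Mrpl9 was negative at all 3 of its tested probe sets. At the brightest, 1427297_at, signals were 552 and 595 in KO and 667 and 609 in WT (-0.15 ± 0.13). At 1437749_s_at they were 306 and 342 in KO and 463 and 424 in WT, a difference of -0.45 ± 0.14 that did not pass either (limma adjusted p = 0.149).

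**Figure D3:**
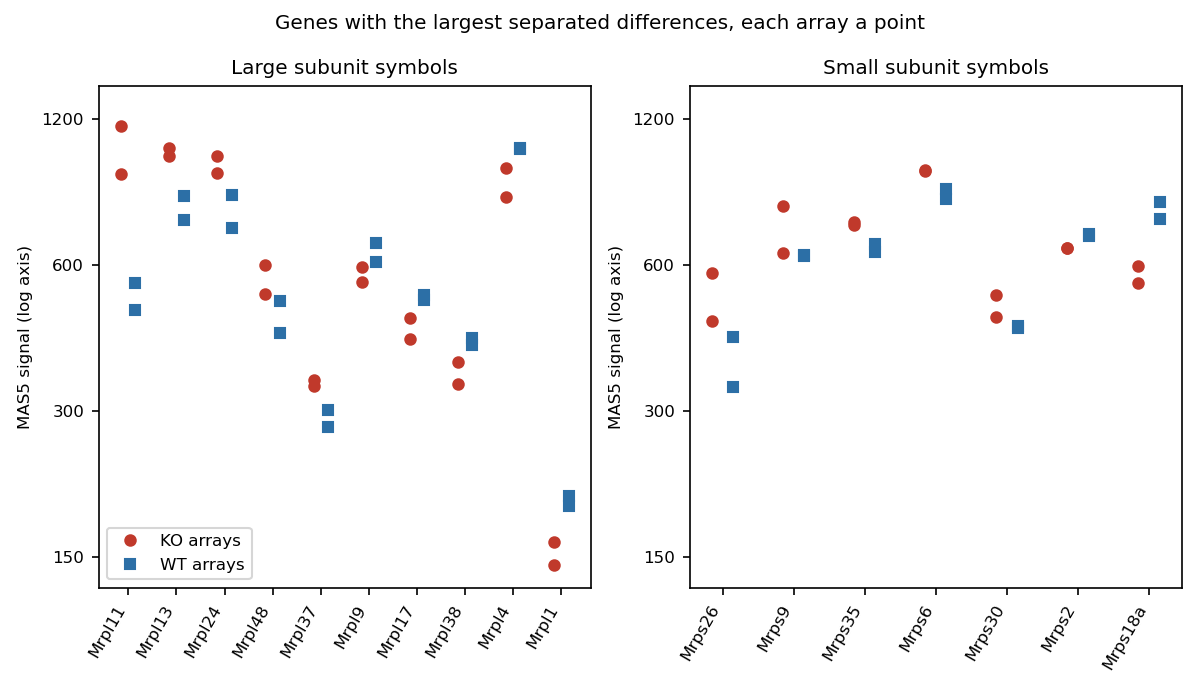
MAS5 signal on a log axis for the member genes with the largest differences among those whose groups do not overlap, at the brightest tested probe set, each point 1 array (circles KO, squares WT). Mrpl11 shows the widest gap, with 922 and 1159 in KO and 549.5 and 484 in WT, and the groups of the other genes lie close together.

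Probe sets of 2 more large subunit genes differed in sign. Mrpl19, which in bacteria lies at the interface of the subunits, stood at -0.39 ± 0.21 at its brightest probe set. At 1450405_at its signals were 149 and 194 in KO and 259 and 208 in WT (-0.45 ± 0.19, limma adjusted p = 0.278). At 1440324_at, with overlapping groups, it stood at 0.019 ± 0.209. Mrpl35 had 39.2 and 54.6 in KO and 61.7 and 84.4 in WT at the dim 1419362_at (-0.64 ± 0.29, adjusted p = 0.309), where KO replicate 1 was not called Present. Its brighter probe sets stood at -0.078 ± 0.121 and 0.12 ± 0.18. Across the family, 33 genes had several tested probe sets, and in 21 of them these differed in sign.

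**Figure D4:**
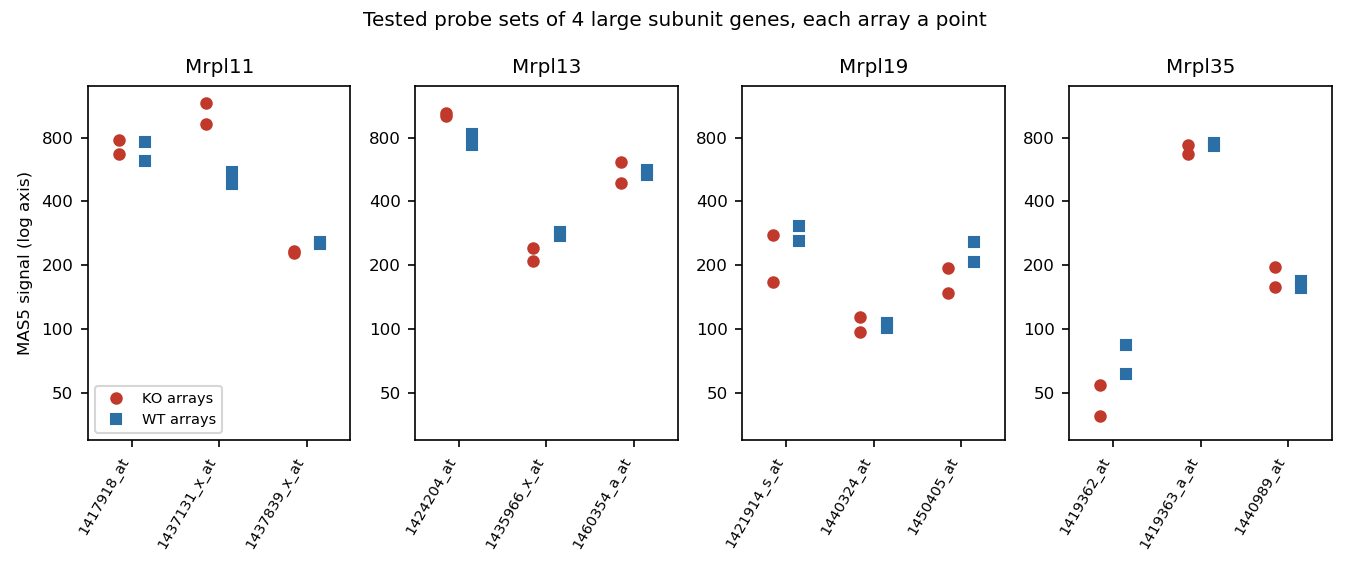
MAS5 signal on a log axis at every tested probe set of Mrpl11, Mrpl13, Mrpl19 and Mrpl35, each point 1 array (circles KO, squares WT). The gap at Mrpl11 1437131_x_at is not seen at the other Mrpl11 probe sets, and the groups of Mrpl13 are in opposite order at 1424204_at and 1435966_x_at.

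The brightest large subunit signals belonged to Mrpl51, Mrpl42 and Mrpl39. Mrpl51, a protein without a bacterial homologue, read 3039 and 3089 in KO and 3397 and 3378 in WT (-0.14 ± 0.092). Mrpl42 read 2144 and 2294 in KO and 2183 and 2358 in WT (-0.033 ± 0.10). Mrpl39, a relative of threonyl-tRNA synthetase in part of its sequence, read 1959 and 2501 in KO and 2001 and 2356 in WT (0.028 ± 0.126). The groups overlap for Mrpl42 and Mrpl39 and do not for Mrpl51, where both KO arrays were the lower ones, and none of the 3 passed.

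Among the small subunit genes Mrps26 had the largest positive difference. It encodes a protein found only in mitochondria, and its signals were 460 and 578 in KO and 427 and 336 in WT. Both KO arrays lay above both WT arrays (0.45 ± 0.16, limma adjusted p = 0.209). Mrps9, whose bacterial homologue reaches with its tail towards the transfer RNA in the P site, had 634 and 794 in KO and 628 and 624 in WT (0.18 ± 0.13). Its other tested probe sets stood at 0.20 ± 0.15 and, at the dim 1439210_at with both KO arrays below both WT arrays, at -0.41 ± 0.27. Mrps35 stood at 0.17 ± 0.12, Mrps6 at 0.16 ± 0.11 and Mrps30 at 0.15 ± 0.13, each with KO above WT on every array. At the dimmer 1424440_at Mrps6 stood at 0.025 ± 0.149, with overlapping groups.

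Mrps18a had the largest negative difference of the small subunit symbols and belongs to a trio of paralogues. The product of Mrps18c is the counterpart of the bacterial protein, while those of Mrps18a and Mrps18b took other places in the mammalian ribosome. Mrps18a had signals of 598 and 551 in KO, against 747 and 807 in WT. The groups do not overlap, and the difference of -0.44 ± 0.12 did not pass (limma adjusted p = 0.113). Mrps18b read 316 and 336 in KO and 281 and 320 in WT (0.12 ± 0.15), and Mrps18c read 721 and 688.5 in KO and 679 and 628 in WT (0.11 ± 0.12). The Mrps18b groups overlap, since its lower KO array lay below its higher WT array.

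Mrps2, the other small subunit gene with both KO arrays below both WT arrays, read 650.2 and 649 in KO and 687 and 695 in WT (-0.089 ± 0.119). At its dimmer probe set 1420845_at the groups overlap, and the difference was 0.055 ± 0.196. The brightest small subunit signals were those of Mrps16, at 1362 and 1198 in KO and 1234 and 1137 in WT, of Mrps36, at 1098 and 1054 in KO and 1076 and 1051 in WT, and of Mrps21, at 1138 and 960.2 in KO and 1030.3 and 1132 in WT. All 3 overlap between groups, with differences of 0.11 ± 0.11, 0.017 ± 0.109 and -0.047 ± 0.121.

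Grouped by a bacterial homologue in place of subunit, the 44 genes classed with one had a median difference of -0.028. The 30 classed without one had a median of 0.071, and Mrpl58 and Mrps36 were left unclassed. Mrps18a and Mrps18b were placed in the class without, although their paralogue Mrps18c is in the other, so the classes are not a strict split by ancestry. The difference between these classes was not tested. Mrpl11 was the 1 called gene of the first class, and the second had none.

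The promoters of the members were read next, which the choice of genes did not use, and no motif was common to all of them. RefSeq windows matched 67 of the 76 genes, 73 windows in all. CCGGAAG or its reverse complement was in the windows of 25 of the 67 genes (37.3%), beside 20.5% of the 8289 tested genes with a window and 9.93% of all 27025 genes with one. GABP, the ETS factor also called nuclear respiratory factor 2, and NRF1 are known as activators of nuclear genes for mitochondria. The NRF1 motif was in the windows of 12 member genes (17.9%), beside 12.1% of tested genes and 5.19% of all genes.

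AAGATGGC was also in 12 of the 67 (17.9%), beside 5.53% of tested genes and 3.19% of all genes. YY1, a factor known to bind this motif, also binds HDAC2. Of the 12 AAGATGGC matches, 8 lay downstream of the start site, and of the 29 CCGGAAG matches, 22 lay within 50 bases of it. These places were not compared with those in the windows of other genes. The letters TATAAA were in 5 of the 67 genes (7.46%), beside 9.13% of tested genes and 15.7% of all genes. GGGCGG, the Sp1 core, was in 34 (50.7%), beside 70.0% and 38.2%. CCGGAAG and AAGATGGC overlapped in 0 windows. These matches are a description of letters and do not show that a factor is bound.

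In the printed windows, Mrps18a holds CCGGAAG before and AAGATGGC after the start, and Mrps26 holds CCGGAAG on the other strand and a pair of overlapping NRF1 matches, while the Mrpl11 window has none of the 3 motifs. By motif, the median difference was 0.045 over 25 genes with CCGGAAG, -0.086 over 12 with the NRF1 motif, -0.0028 over 12 with AAGATGGC and 0.062 over 26 with none of the 3. Differences between these medians were not tested.

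**Figure D5:**
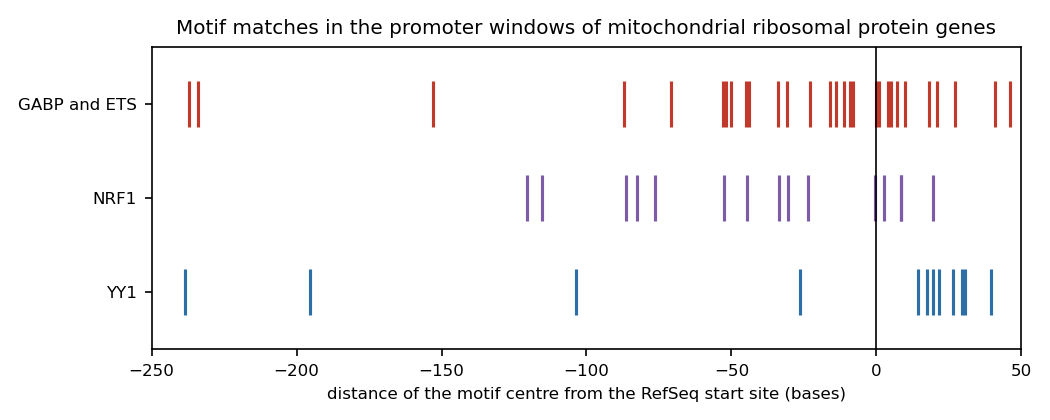
Places of the motif matches, in bases from the RefSeq start site, in the promoter windows of 67 mitochondrial ribosomal protein genes, one mark per match. Of 29 CCGGAAG matches (GABP and ETS), 22 lie within 50 bases of the start, and 8 of 12 AAGATGGC matches (YY1) lie after it. Places in the windows of other genes were not compared.

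Many of the genes are read away from a neighbour on the opposite strand. For 25 of the 67 (37.3%) another gene started upstream on the other strand within 1000 bases, beside 20.3% of tested genes and 12.3% of all genes with a window. Mrpl46 and Mrps11 form such a pair, with starts 42 bases apart, as printed above. Mrpl46 read 520 and 621 in KO and 520 and 491 in WT (0.17 ± 0.14), and Mrps11 read 289 and 314 in KO and 377 and 301 in WT (-0.16 ± 0.16). Their differences had opposite signs, and the groups overlap in both.

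Other pairs join members to genes of the same organelle. Mrps12 starts 147 bases from Sars2, the mitochondrial seryl-tRNA synthetase, Mrpl43 lies 116 bases from Twnk, the helicase of mitochondrial DNA, and Mrpl47 is 308 bases from Ndufb5, a subunit of respiratory complex I. Differences were 0.091 ± 0.136 for Mrps12 and -0.25 ± 0.19 for Sars2, 0.10 ± 0.13 for Mrpl43 and 0.074 ± 0.140 for Twnk, and 0.12 ± 0.15 for Mrpl47 and -0.11 ± 0.095 for Ndufb5. None of these genes passed the test.

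The wider machinery of mitochondrial gene expression was read from lists of known genes, again at the brightest tested probe set. Of 6 tested ribosomal proteins or partners without an Mrp symbol, 12 translation factors, 24 genes of ribosome assembly and ribosomal RNA modification and 23 of mitochondrial transcription and DNA maintenance, 0 passed in limma in either direction. Their medians were 0.050, -0.021, 0.029 and 0.074. At an unadjusted p under 0.05 there were 1 higher, 2 lower, 2 higher, and 3 higher with 1 lower, in that order of lists. Over all genes at their brightest probe set the shares were 8.42% higher and 7.14% lower. The last list also holds nuclear regulators, among them Myc, which is 1 of the 3 higher, and Esrra, the 1 lower.

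Dap3, a GTP-binding protein of the small subunit, had signals of 1421 and 1329 in KO and 1086 and 1076 in WT (0.35 ± 0.11, limma adjusted p = 0.145). Chchd1, another small subunit protein, stood at -0.15 ± 0.099. Mtif2, the initiation factor of mitochondrial translation, had 253 and 360.2 in KO and 454 and 400 in WT (-0.50 ± 0.17, adjusted p = 0.194), and its difference passed without KO replicate 2 (adjusted p = 0.0393), where the WT pair alone gives the spread. Tufm, the elongation factor that delivers transfer RNA, had a difference of -0.29 ± 0.13 at the brighter of its probe sets and -0.14 ± 0.22 at the other.

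Gtpbp10, a GTPase of large subunit assembly, had a difference of 0.42 ± 0.17 at the brighter of its probe sets and -0.25 ± 0.35 at the dimmer. Mrm2, which methylates the large ribosomal RNA, stood at 0.59 ± 0.26 and changed sign in the deposited signal log ratio. Trmt10c, a subunit of mitochondrial RNase P, stood at 0.68 ± 0.25, and Ssbp1, which coats single-stranded mitochondrial DNA, at 0.28 ± 0.12. Dimmer probe sets of Ssbp1 stood at -0.42 ± 0.22, where both KO arrays lay below both WT arrays, and at 0.12 ± 0.14, where the groups overlap. In every one of these 4 genes both KO arrays lay above both WT arrays at the brightest probe set, and none passed (limma adjusted p of 0.249, 0.302, 0.219 and 0.272).

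In the remaining lists 1 gene passed in each. Of 20 tested aminoacyl-tRNA synthetases and related enzymes of mitochondria (median 0.071), Lars2, the leucyl-tRNA synthetase, read 402 and 345 in KO, against 186 and 206 in WT. It rose by 0.93 ± 0.16 (limma adjusted p = 0.00964). Gatb, a subunit of the enzyme that makes glutaminyl-tRNA in mitochondria, stood at -0.35 ± 0.18.

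Of 22 tested genes of protein import into mitochondria (median 0.055), Tomm40, the pore of the outer membrane translocase, read 619 and 644 in KO and 1037 and 977.5 in WT. It fell by 0.67 ± 0.12 (limma adjusted p = 0.0104). Timm8a1, a small chaperone of the intermembrane space, stood at 0.28 ± 0.12, with 0.0080 ± 0.1533 at its dimmer probe set. The calls of Lars2 and Tomm40 ended without the detection filter (adjusted p = 0.146 and 0.125), without the variance trend (0.172 and 0.208) and in the deposited signal log ratio (0.356 for both), and that of Tomm40 also without WT replicate 1 (0.101). Against 1 gene called in each list, 0.481% of all genes were called higher and 0.815% lower at their brightest probe set.

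Other measures differed between the groups. All 12 tested cardiomyocyte markers were Present on every array and 0 passed, with differences from -0.079 to 0.15 (0 at an unadjusted p under 0.05 as well). Of 13 tested skeletal muscle markers, 13 were Present on both WT arrays but 5 on both KO arrays, so 8 entered the test through WT alone, and no median is given for them. Of all 13, Mylpf, a fast muscle myosin light chain, read 80.4 and 62.5 in KO and 2972 and 2654 in WT, while Ckm, which heart muscle also makes in quantity, read 11985 and 12950.0 in KO and 12738 and 12673 in WT. In bulk tissue, fewer cells of a type and less RNA per cell cannot be told apart. Of 4 tested bone markers, 4 were Present on both WT arrays and 1 on both KO arrays. Of 7 tested fibroblast markers, 3 had a positive and 4 a negative difference. Col1a1 fell by 0.73 (limma adjusted p = 0.00199) and Col1a2 fell by 0.55 (adjusted p = 0.0118), both collagen chains that bone also makes. No other marker of that list passed, and Pdgfra stood at 0.52 ± 0.17, with both KO arrays above both WT arrays. Of 3 tested erythroid markers, 3 were Present on both KO arrays but 1 on both WT arrays, so the others entered the test through KO alone. The embryonic globin Hbb-y read 58.8 and 57.3 in KO and 22.6 and 11.8 in WT. Alas2 stood at 0.31 ± 0.15 and Slc4a1 at -0.012 ± 0.259. Of 4 tested sex-linked genes, Xist read 548 and 794 in KO and 80.5 and 90.1 in WT, and was called higher. The Y-linked Eif2s3y and Uty were called lower, at -1.34 ± 0.23 and -1.29 ± 0.23. Kdm5d, also Y-linked, stood at -1.23 ± 0.32 and did not pass (limma adjusted p = 0.0883). The groups do not overlap in any of the 4, and the sex make-up of the pools was not tested. The actin ratio of 3' to 5' signal, which grows as RNA shortens, was 2.75 and 2.42 in KO and 1.85 and 2.32 in WT. The part of these differences in the values of Mrpl11, Lars2 and Tomm40 was not tested.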

How the data were processed

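Transcripts were measured on 4 Affymetrix MOE430v2 arrays, 1 colour each, from 6 µg of total RNA per array. Per the submitters' processing notes the authors used MAS5, and the values they deposited are its intensity per probe set. No MAS5 version is given in the labels. Every array had the same 2%-trimmed mean of 150 in the deposited signals, so scaling changed nothing. Per the file headers, the deposited detection p-value comes with Present, Marginal and Absent calls, which were used as the filter, and the signal log ratio the authors deposited is a log2 value against an unnamed baseline array. The series-wide table held identical signals at all 45101 probe sets.

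Of 45101 probe sets, 64 controls were left out. Genes were named from the platform annotation, in which 34945 probe sets name 1 gene, and all 76 member symbols matched the table of GRCm38.p6. Signals of 0 were set to 0.1. The log2 signals of the probe sets Present on both arrays of a group were fitted with limma 3.58.1 (lmFit, eBayes with a variance trend) in R 4.3.3, on all 4 arrays with genotype as the factor, two-sided, with Benjamini-Hochberg adjustment over all 19065 and a threshold of 0.05. The fit was tested on simulated data. With 2 arrays a group, precision is limited by their number. The members and gene lists were chosen with earlier results of these data known.

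Named are the called member probe sets, the 5 genes per subunit and direction with the largest differences among those whose groups do not overlap, the 3 brightest per subunit, genes with 1 probe set at an unadjusted p under 0.05 and another of opposite sign, the Mrps18 paralogues, and in each mitochondrial list the called genes and the 2 with the smallest p. Mrpl48 at 1437997_x_at, Mrpl9 at 1437749_s_at and the paired genes were chosen after their values were seen. Titles give both groups the replicate numbers 1 and 2; deviations of same-numbered arrays from their group means correlated at -0.011, so the numbers were not taken as pairs.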

Additional observations from a re-analysis of the deposited data

How the results depend on the processing

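Calls rested on the variance trend and the detection filter. Over all probe sets, 73 were higher and 183 lower in KO, against 7 and 30 without the detection filter, 4 and 19 without the variance trend, 271 and 450 with the replicate block, and 0 and 0 with the signal log ratio in limma (1174 and 1370 at an unadjusted p under 0.05). With 1 array left out, where the other group gives the spread, the counts ran from 48 to 222 higher (48 without KO replicate 2, 222 without KO replicate 1) and from 110 to 428 lower (110 without WT replicate 1, 428 without KO replicate 1). The replicate numbers were not taken as pairs in the main fit, and whether they pair the arrays remains unknown.

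Of large subunit probe sets, 1 was higher, against 0 without the detection filter, without the variance trend and with the signal log ratio, 2 with the replicate block (Mrpl11, and Mrpl48 at 1437997_x_at with adjusted p = 0.0159), 1 with any array left out, and 0 without probe sets of suffix x or s, a setting chosen after seeing the data. The counts of large subunit probe sets lower and of small subunit probe sets in either direction were 0 under every setting run. The large subunit median ran from -0.084 to 0.016 and the small subunit median from 0.021 to 0.12 with 1 array left out, and the small subunit median was 0 with the signal log ratio.

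Some differences changed sign, none of them called. Median centring gave Mrpl39 -0.0032, Mrps36 -0.014, Mrpl13 1460354_a_at -0.030 and Mrpl19 1440324_at -0.012. Quantile normalization gave Mrps36 -0.011 and Mrpl13 1460354_a_at -0.035. The signal log ratio gave Mrpl38 0.05, Mrps9 -0.10, Mrps36 -0.05, Mrpl35 1440989_at -0.15, Mrps18c -0.10 and Mrm2 -0.05. Of these, Mrm2 had stood at 0.59 and Mrpl38 at -0.22 in the main fit. With 1 array left out, the range crossed 0 for Mrpl39 (-0.15 to 0.20), Mrpl42 (-0.088 to 0.023), Mrpl11 1417918_at (-0.080 to 0.21), Mrpl13 1460354_a_at (-0.16 to 0.17), Mrpl19 1440324_at (-0.097 to 0.13), Mrpl35 1440989_at (-0.038 to 0.27), Mrps21 (-0.17 to 0.076) and Mrps36 (-0.013 to 0.046). Mrpl35 1419362_at gives no value where probe sets must be Present on all 4 arrays. For single named probe sets, 573 values kept their side of the threshold and did not take the opposite sign. Another 26 changed sign, 10 lost and 1 gained a call, and the cause was not tested. The 573 include differences of exactly 0 in the signal log ratio, as at Mrpl19 1450405_at, which stood at -0.45 in the main fit.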
